A study of Homo sapiens with 8 samples.

Results

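Translation initiation factors are the proteins that load a ribosome onto a messenger RNA and place it at the start codon. Their genes were followed in a pair of human T-cell acute lymphoblastic leukemia (T-ALL) lines treated with PKF118-310. The set held 39 genes, chosen by name and by the factor they belong to, out of 57189 genes in the count files. It comprised 2 genes of eIF1, 3 of eIF2, 5 of eIF2B, 13 of eIF3, 12 of eIF4, 3 of eIF5 and 1 of eIF6. All 39 had enough reads to be tested, alongside 13280 genes in all.

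The groups were CUTTL1 control, CUTTL1 with PKF118-310, TIB153 control and TIB153 with PKF118-310, where CUTTL1 is the labels' spelling of the line the study writes as CUTLL1. PKF118-310 is a small molecule sold as an inhibitor of β-catenin and its TCF partner factors, and treatment was with 1 µM for 24 h. All cells were grown in RPMI with serum, and control cells were untransfected. The study calls the controls of these lines placebo-treated, without naming the vehicle. Each group was 1 poly(A)-selected library sequenced in 2 lanes, so the lanes were summed and treatment was compared over n = 2 lines. Nothing in the labels gave a second culture of any group, so p-values did not measure variation between repeat cultures of a line. They rested mostly on a spread between these libraries that was pooled over genes.

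In the cell, eIF2 carries the initiator methionyl-tRNA as a complex with GTP, and eIF2B recharges eIF2 with GTP after each round. eIF1 and eIF1A keep the scanning small ribosomal subunit open, eIF3 is the large scaffold on that subunit, and eIF4E, eIF4G and eIF4A form the eIF4F complex that binds the cap of the messenger RNA. eIF5 triggers GTP hydrolysis on eIF2 at the start codon, eIF5B joins the large subunit, and eIF6 keeps the large subunit from joining too early. Rapidly growing leukemia cells are known for a high demand on this machinery. The RNA levels below measure none of the phosphorylation steps that control eIF2 and the eIF4E-binding proteins.

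Library totals ran from 7609427 to 8140391 counts. The treated libraries had more genes with at least 1 read (21134 and 22120) than the control libraries (19674 and 19719). The lanes of each library differed by no more than sampling noise. All 10 T-ALL marker genes were measured, with a summed level of 3300 CPM (counts scaled by TMM to a common library size) in CUTTL1 control cells and 3050 CPM in TIB153 control cells, and 2260 and 2890 CPM after treatment. Of these, CD3G, CD7 and TCF7 fell with treatment in the test across lines described below (30%, against 6.78% of all genes tested). In CUTTL1 all 10 had log2 ratios below 0, and 5 were at least 1.5-fold lower beyond counting error (50%, against 6.39%). In TIB153, 5 lay below 0 and 1 was lower by that limit (10%, against 9.81%). Of the B-cell markers, CD79A had 80 and 109 counts in CUTTL1 and 608 and 875 counts in TIB153, while MS4A1 and CD22 had 0 counts in every library, where 3 counts, or 0.369 to 0.394 CPM, were taken as the limit that 0 allows. Myeloid markers summed to at most 0.676 CPM, erythroid markers to at most 0.13 CPM and stromal and epithelial markers to at most 8.12 CPM. The part of the marker changes in the results below was not tested.

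Across both lines, 9 of the 39 genes passed the test (edgeR's quasi-likelihood test with cell line as a block, Benjamini-Hochberg adjusted p under 0.05 over all 13280 genes). They moved in both directions, with EIF1 and EIF3L higher after treatment and EIF5A, EIF4G3, EIF1AX, EIF4G1, EIF4E, EIF4EBP2 and EIF3B lower. The 2 genes that rose were 5.13% of the set, against 6.11% of all genes tested, so rises were about as common as in the background. The 7 genes that fell were 17.9% of the set, against 6.78% of all genes tested. The median log2 fold change was −0.14 for the set and 0.00 for all genes tested, and 27 of 39 estimates lay below 0. With scaling by total counts alone, 3 genes rose (7.69%, against 6.39% of all genes) and 4 fell (10.3%, against 4.22%). Over genes with a mean of at least 10 CPM, 3 of 38 rose (7.89%, against 6.93%) and 4 fell (10.5%, against 6.09%). At an unadjusted p under 0.05 there were 15 genes of the set (38.5%), against 28.7% of all genes tested. DESeq2's Wald test on the same libraries passed 4 genes of the set (10.3%), namely EIF1, EIF4G1, EIF4G3 and EIF5A, against 3.34% of all genes tested.

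**Figure D1:**
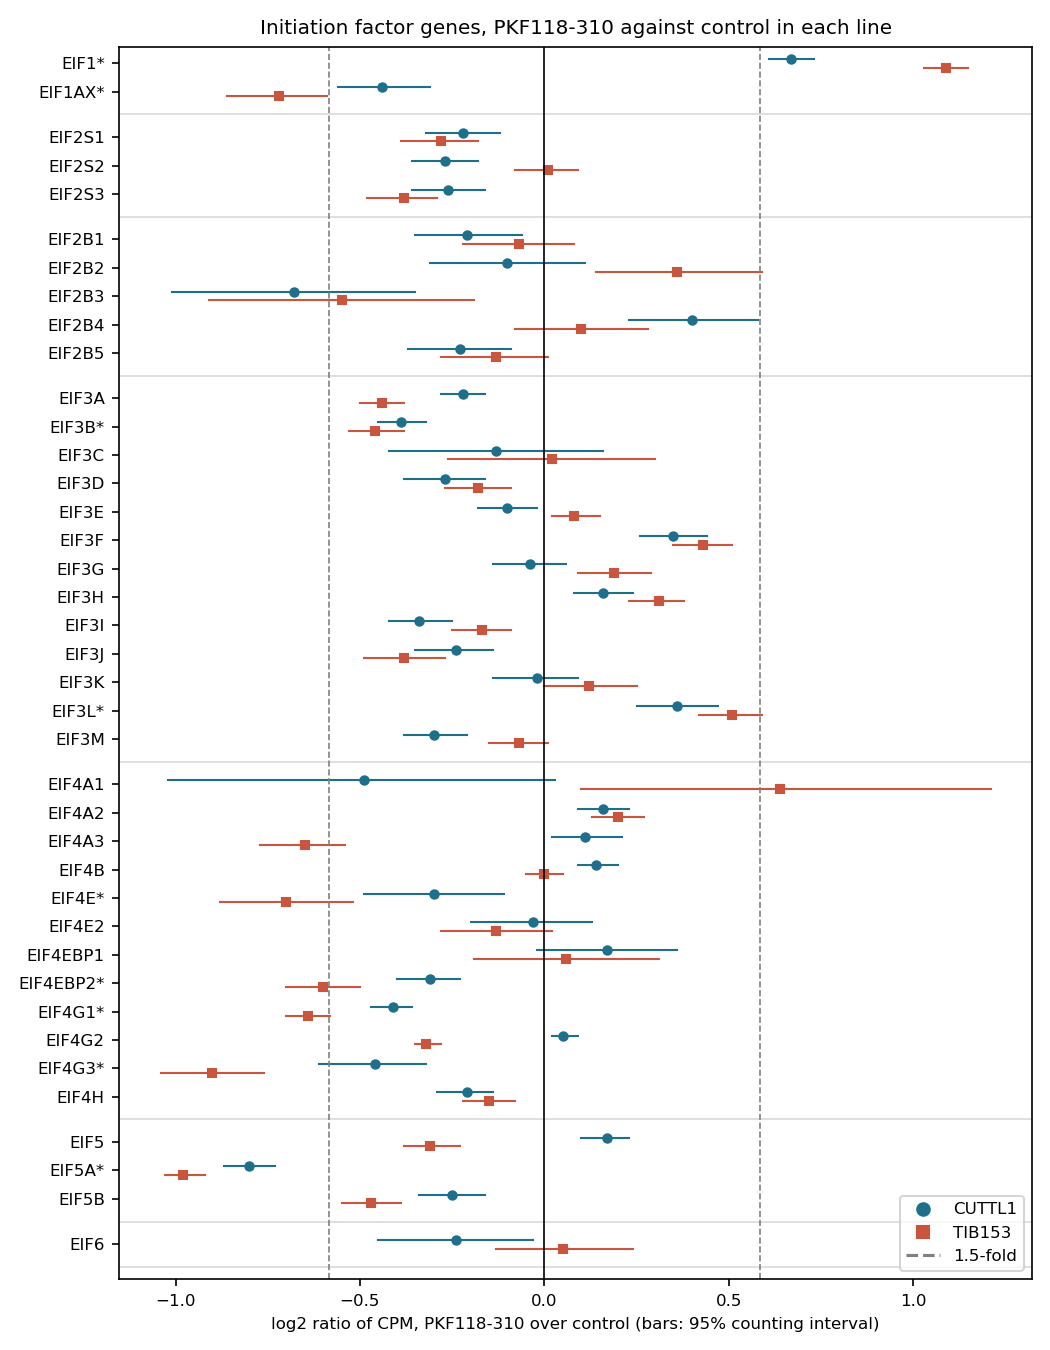
Log2 ratio of CPM, PKF118-310 over control, for all 39 initiation factor genes, with circles for CUTTL1, squares for TIB153 and bars for the 95% counting interval. Asterisks mark the 9 genes that passed the test across lines, dashed lines mark 1.5-fold, and EIF1 and EIF5A stand farthest from 0 in both lines in opposite directions among the genes that passed.

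Within each line there was 1 library per group, so genes are described by a ratio of at least 1.5-fold whose 95% interval, which covers counting error only, left out no change. In CUTTL1, 1 of 39 genes was higher (2.56%, against 9.49% of all genes tested) and 2 were lower (5.13%, against 6.39%). In TIB153, 2 were higher (5.13%, against 11.4%) and 7 were lower (17.9%, against 9.81%). The median log2 ratio of the set was −0.22 in CUTTL1 and −0.13 in TIB153, against 0.00 and −0.01 for all genes tested. The ratio lay below 0 in both lines for 20 genes (51.3%, against 35.7% of all genes tested), above 0 in both for 8 (20.5%, against 35.1%) and on opposite sides for 11 (28.2%, against 29.2%). As a share of all counts, the set took 1.17% in CUTTL1 control cells and 1.15% after treatment, and 1.19% and 1.11% in TIB153.

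Of the eIF1 genes, EIF1 rose and EIF1AX fell. EIF1, at chr17:41688885-41692668 on the plus strand of hg38, encodes the factor that guards the accuracy of start codon choice. Its level was 510 CPM in CUTTL1 control cells and 812 CPM in treated ones, and 393 and 839 CPM in TIB153. Both treated libraries were above both control libraries. The log2 ratio was 0.67 (95% interval 0.61 to 0.73) in CUTTL1 and 1.09 (1.03 to 1.15) in TIB153, and the log2 fold change across lines was 0.88 ± 0.14 (SE, n = 2 lines; adjusted p = 0.0025).

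EIF1AX, the X-linked gene of eIF1A at chrX:20124518-20141844 on the minus strand, stood at 162 CPM in CUTTL1 control cells and 120 CPM after treatment. In TIB153 it went from 148 to 89.4 CPM. The treated libraries were both below the control libraries. The log2 fold change across lines was −0.58 ± 0.13 (SE; adjusted p = 0.0121), though with DESeq2 the adjusted p was 0.0665. EIF1B, a close relative of EIF1 outside the set, had 289 counts in both control libraries and 422 and 586 counts in the treated ones, and rose by 0.67 ± 0.17 on the log2 scale (adjusted p = 0.0208).

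None of the 3 eIF2 subunit genes passed the edgeR test, and 1 of them, EIF2S3, had an unadjusted p under 0.05. DESeq2 passed none. EIF2S1 encodes the alpha subunit, whose phosphorylation shuts down the factor, and its log2 fold change was −0.25 ± 0.12 (SE; adjusted p = 0.189). For EIF2S2, the beta subunit, the log2 ratio was −0.27 (−0.36 to −0.18) in CUTTL1 and 0.01 (−0.08 to 0.09) in TIB153. For EIF2S3, the gamma subunit that binds GTP and tRNA, the log2 fold change was −0.32 ± 0.12 (adjusted p = 0.0992).

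None of the 5 eIF2B genes passed the edgeR test either, with 1 at an unadjusted p under 0.05 and none by DESeq2. That gene was EIF2B3, which encodes the gamma subunit of the exchange factor and lies at chr1:44850522-44986722 on the minus strand. It was measured at 26.2 CPM in CUTTL1 control cells and 16.4 CPM after treatment, and at 19.9 and 13.6 CPM in TIB153. The treated values lay below both control values, but they rested on 194, 131, 153 and 114 counts. The log2 ratio was −0.68 (−1.01 to −0.35) in CUTTL1, past 1.5-fold, and −0.55 (−0.91 to −0.19) in TIB153, and across lines the adjusted p was 0.0808. The other eIF2B genes ranged in log2 fold change from −0.18 for EIF2B5, the catalytic epsilon subunit, to 0.25 for EIF2B4, the delta subunit. EIF2B1, the alpha subunit that holds the complex together, was at −0.14. EIF2B2, the beta subunit, had log2 ratios of −0.10 (−0.31 to 0.11) and 0.36 (0.14 to 0.59) in CUTTL1 and TIB153.

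Of the 13 eIF3 subunit genes, EIF3L rose and EIF3B fell. No eIF3 gene reached 1.5-fold in either line. The median log2 fold change of the 13 was −0.06. EIF3B, a core subunit that holds the smaller EIF3G and EIF3I subunits, lies at chr7:2354086-2380745 on the plus strand. Its level was 588 CPM in CUTTL1 control cells and 449 CPM after treatment, and 431 and 314 CPM in TIB153. The lines differed in their starting level, so treated CUTTL1 cells lay above control TIB153 cells, while the log2 ratio was −0.39 (−0.45 to −0.32) in CUTTL1 and −0.46 (−0.53 to −0.38) in TIB153, a difference of −0.07 (−0.17 to 0.03). The log2 fold change was −0.42 ± 0.12 (SE; adjusted p = 0.0380). With scaling by total counts alone the adjusted p was 0.0743.

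EIF3L stood at 155 CPM in CUTTL1 control cells and 198 CPM after treatment. In TIB153 it stood at 219 and 311 CPM. Each line moved up, and the treated CUTTL1 value lay below the TIB153 control. The log2 fold change was 0.43 ± 0.12 (SE; adjusted p = 0.0345). The adjusted p was 0.0845 with the second lane alone and 0.141 with DESeq2. Its value is uncertain, since 41.1% of its exonic bases are shared on the same strand with AL022311.1, a gene listed at 16 to 28 counts. EIF3F, another eIF3 subunit, had log2 ratios of 0.35 (0.26 to 0.44) and 0.43 (0.35 to 0.51), with an adjusted p of 0.0506 across lines. It was past the threshold with scaling by total counts alone, at an adjusted p of 0.0387.

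The eIF3 subunits fall into an octamer of EIF3A, EIF3C, EIF3E, EIF3F, EIF3H, EIF3K, EIF3L and EIF3M and a group of 5 others, EIF3B, EIF3D, EIF3G, EIF3I and EIF3J. This division was applied after the values were seen. The median log2 fold change was 0.02 over the 8 octamer genes, of which 4 lay below 0, and −0.25 over the 5 others, of which 4 lay below 0. EIF3A, the largest subunit and the base of the octamer, was at −0.33 ± 0.13 (SE; adjusted p = 0.108), and EIF3J, a loosely bound subunit, at −0.31 ± 0.12 (adjusted p = 0.108). EIF3H was at 0.24 and EIF3D, which can bind the cap of some messenger RNAs, was at −0.22. None of the remaining subunits passed, with log2 fold changes of −0.25 for EIF3I, −0.18 for EIF3M, −0.01 for EIF3E, 0.05 for EIF3K and 0.07 for EIF3G. EIF3C had 197 to 224 counts in the 4 libraries, and its near-identical copy EIF3CL had 489 to 539, so reads may be split between them and the level of EIF3C is uncertain.

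Of the 12 eIF4 genes, 4 fell (33.3%, against 6.78% of all genes tested). DESeq2 passed 2 of the 12 (16.7%, against 3.34%), EIF4G1 and EIF4G3. EIF4G1 encodes the main scaffold of eIF4F and lies at chr3:184314495-184335358 on the plus strand. It went from 770 to 578 CPM in CUTTL1 and from 722 to 463 CPM in TIB153. The 2 treated libraries were below both controls, with log2 ratios of −0.41 (−0.47 to −0.36) and −0.64 (−0.70 to −0.58). The log2 fold change was −0.53 ± 0.13 (SE; adjusted p = 0.0193).

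EIF4G3, the related scaffold gene at chr1:20806292-21176888 on the minus strand, stood at 121 CPM in CUTTL1 control cells and 88.0 CPM after treatment. In TIB153 it went from 145 to 77.6 CPM. Control and treated levels did not overlap, and the log2 fold change was −0.68 ± 0.14 (SE; adjusted p = 0.00928). The log2 ratio was −0.90 (−1.04 to −0.76) in TIB153 and −0.46 (−0.61 to −0.32) in CUTTL1. EIF4G2, a shorter relative that lacks the part binding the cap protein, had the highest CPM of the set in every library. Its level was 1870 CPM in CUTTL1 control cells and 1940 CPM after treatment, and 1820 and 1460 CPM in TIB153. It was higher in one line and lower in the other, with a log2 fold change of −0.13 ± 0.14 (adjusted p = 0.580).

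EIF4E, the cap-binding protein at chr4:98871684-98930637 on the minus strand, went from 65.9 to 53.6 CPM in CUTTL1 and from 82.6 to 50.9 CPM in TIB153. Both treated values were below both control values. The log2 fold change was −0.50 ± 0.15 (SE), and the adjusted p of 0.0464 lay close to the threshold. With DESeq2 size factors in the same test it was 0.0562, and with either lane alone it was 0.0837 or 0.0850. EIF4E2, a cap-binding relative linked to repression of translation, was at 78.3 and 76.5 CPM in CUTTL1 and at 93.4 and 85.4 CPM in TIB153, with a log2 fold change of −0.08 ± 0.13 (adjusted p = 0.724). In the annotation, 24.2% of its exonic bases lie opposite genes of the other strand, and whether counting used strand is not stated in the sources used here.

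The eIF4E-binding proteins hold eIF4E back until they are phosphorylated by mTORC1. EIF4EBP2, at chr10:70404379-70428618 on the plus strand, went from 310 to 250 CPM in CUTTL1 and from 236 to 156 CPM in TIB153. The CUTTL1 treated value remained above the TIB153 control. Its log2 fold change was −0.45 ± 0.13 (SE; adjusted p = 0.0327), and with scaling by total counts alone the adjusted p was 0.0669. EIF4EBP1 was at 56.7 and 63.7 CPM in CUTTL1 and at 32.6 and 33.9 CPM in TIB153. Its libraries separated by line and not by treatment, and the log2 fold change was 0.12 ± 0.16 (adjusted p = 0.669).

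The eIF4A genes encode the RNA helicases of the family. EIF4A2 was measured at 453 CPM in CUTTL1 control cells and 506 CPM after treatment, and at 406 and 466 CPM in TIB153. Its log2 ratios were 0.16 (0.09 to 0.23) and 0.20 (0.13 to 0.27), with an adjusted p of 0.364 across lines. EIF4A1 had only 74 and 57 counts in CUTTL1 and 45 and 77 counts in TIB153. Its values are uncertain, because 48.6% of its exonic bases are shared on the same strand with other annotated genes, the readthrough gene SENP3-EIF4A1 among them. It counted as higher in TIB153, with a log2 ratio of 0.64 (0.10 to 1.21), but in either lane alone it did not reach that limit beyond counting error.

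EIF4A3, a helicase of the exon junction complex and not of eIF4F, went from 218 to 237 CPM in CUTTL1 and from 189 to 120 CPM in TIB153. The TIB153 treated library was the lowest of the 4 and the CUTTL1 treated library the highest. The log2 ratio was 0.11 (0.02 to 0.21) in CUTTL1 and −0.65 (−0.77 to −0.54) in TIB153. EIF4B and EIF4H, which stimulate the helicase, had log2 fold changes of 0.07 and −0.18. Neither passed the test.

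Among the eIF5 genes, EIF5A fell. EIF5A, at chr17:7306999-7312463 on the plus strand, encodes a small protein that carries the modified lysine hypusine and is known mainly for helping ribosomes through elongation and termination. Its level was 584 CPM in CUTTL1 control cells and 334 CPM after treatment, and 957 and 486 CPM in TIB153. Both treated libraries lay below both control libraries. The log2 ratio was −0.80 (−0.87 to −0.73) in CUTTL1 and −0.98 (−1.03 to −0.92) in TIB153, and the log2 fold change was −0.89 ± 0.13 (SE; adjusted p = 0.00142). This was the gene of the set with the smallest adjusted p by both edgeR and DESeq2.

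EIF5A2 and EIF5AL1, relatives of EIF5A outside the set, had at most 110 and 14 counts in a library. EIF5A2 had log2 ratios of −0.89 (−1.36 to −0.44) in CUTTL1 and −0.72 (−1.21 to −0.25) in TIB153. Across lines it was at −0.81 ± 0.27 (SE; edgeR adjusted p = 0.0653), and EIF5AL1 at −1.65 ± 0.67 (adjusted p = 0.122). The enzymes that add hypusine, DHPS and DOHH, had log2 fold changes of 0.61 ± 0.34 and 0.17 ± 0.16, and neither passed (adjusted p = 0.255 and 0.506, none at an unadjusted p under 0.05 and none by DESeq2, which gave DHPS no adjusted p). DHPS had log2 ratios of 0.35 (−0.41 to 1.14) in CUTTL1 and 0.81 (0.26 to 1.40) in TIB153. It is uncertain, with 26 to 79 counts and 38.5% of its exonic bases shared on the same strand with AC010422.8. EIF5B, the subunit-joining GTPase, was at −0.36 ± 0.13 (SE; adjusted p = 0.0779). EIF5 had log2 ratios of 0.17 (0.10 to 0.23) in CUTTL1 and −0.31 (−0.38 to −0.23) in TIB153. EIF6 was measured at 53.7 and 45.6 CPM in CUTTL1 and at 59.8 and 62.0 CPM in TIB153, with an adjusted p of 0.744.

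**Figure D2:**
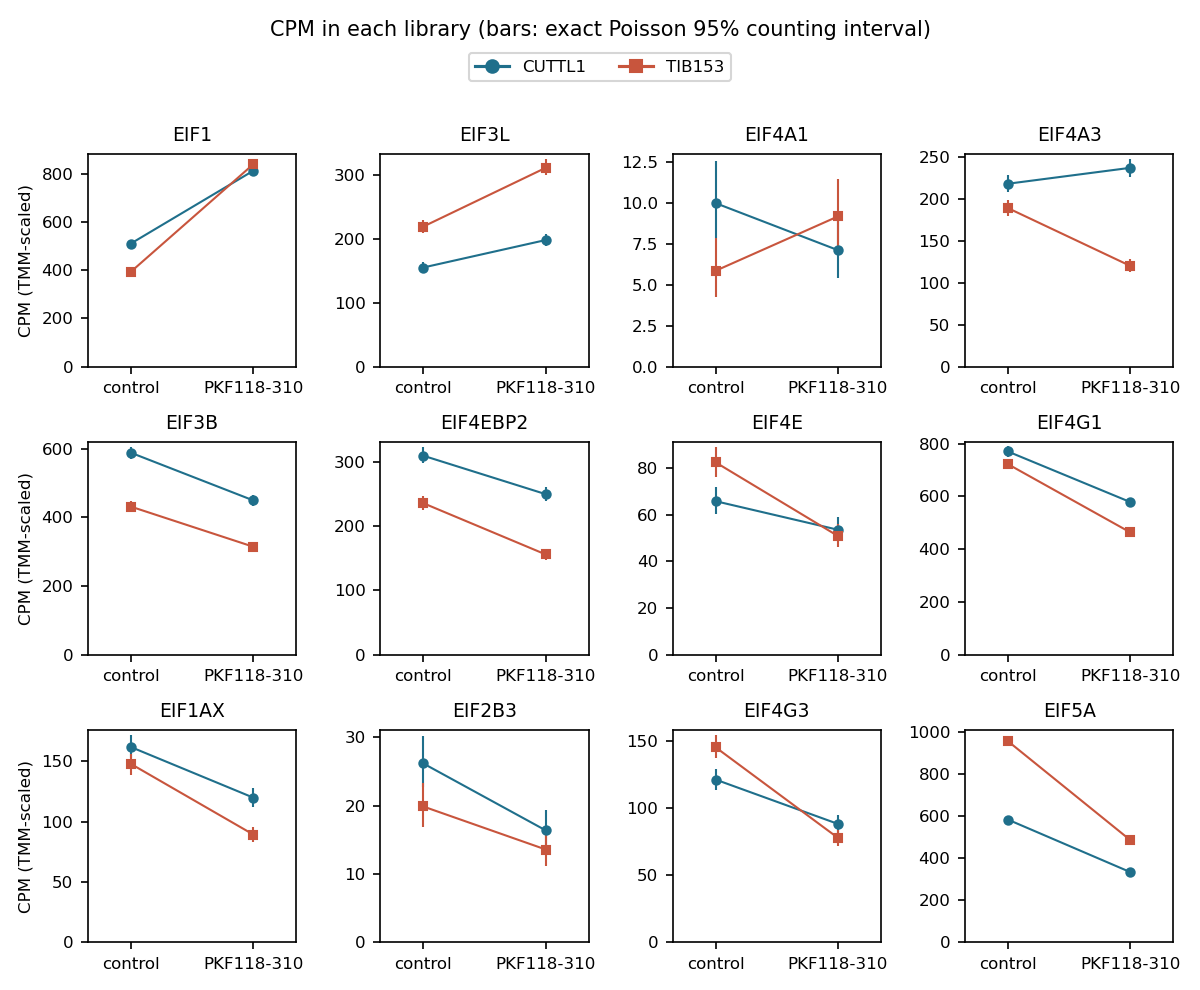
CPM in each library for the 12 genes that passed the test across lines or reached 1.5-fold in a line, control at the left and PKF118-310 at the right of each panel, with circles for CUTTL1, squares for TIB153 and bars for the exact Poisson 95% interval. EIF1 rises from 510 and 393 CPM to 812 and 839 CPM, EIF5A falls from 584 and 957 CPM to 334 and 486 CPM, and the lines cross for EIF4A1 and diverge for EIF4A3.

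Summed by factor, eIF1 took 0.0653% of all counts in CUTTL1 control cells and 0.0936% after treatment, and 0.0533% and 0.0955% in TIB153. eIF5 took 0.138% and 0.119% in CUTTL1 and 0.171% and 0.112% in TIB153. For eIF3 the shares were 0.366% and 0.347% in CUTTL1 and 0.372% and 0.379% in TIB153. For eIF4 they were 0.487% and 0.488% in CUTTL1 and 0.480% and 0.414% in TIB153. These sums have no replicate within a line, and EIF4G2 contributed the most to that of eIF4. They pool genes that moved differently. The eIF1 sum rose through EIF1, while EIF1AX was lower after treatment in both lines. In the eIF5 sum, EIF5A and EIF5B were lower in both lines, and EIF5 was higher in CUTTL1 and lower in TIB153.

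The response was then set side by side in the lines. With 1 library per group the difference between lines could not be tested, and intervals cover counting error only. The log2 ratio was at least 1.5-fold higher in TIB153 than in CUTTL1 for 1 of 39 genes, against 5.75% of all genes tested, and at least 1.5-fold lower for 1, against 6.78%. These were EIF4A1, with a difference of 1.13 (0.41 to 1.86), and EIF4A3, with −0.77 (−0.92 to −0.62). The ratio was lower in TIB153 for 9 of 12 eIF4 genes, with a median difference of −0.19, and for 3 of 13 eIF3 genes, with a median difference of 0.15. Over all genes tested the ratio was lower in TIB153 for 6996 of 13280, with a median difference of −0.03. For the whole set it was lower for 19 of 39, with a median difference of 0.04. Whether the factors differ in this was not tested. EIF4G3 differed by −0.44 (−0.64 to −0.24), EIF4E by −0.40 (−0.66 to −0.14) and EIF1 by 0.42 (0.33 to 0.50).

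In control cells, 1 of 39 genes was at least 1.5-fold higher in TIB153 than in CUTTL1, against 15.2% of all genes tested, and 2 were at least 1.5-fold lower, against 10.7%. EIF5A was the higher one, by 1.64-fold (log2 ratio 0.71, 0.66 to 0.77). EIF4EBP1 was 1.74-fold lower (log2 ratio −0.80, −1.03 to −0.57), and EIF4A1, on few counts, 1.70-fold lower. EIF3D was just under the limit at a log2 ratio of 0.58 (0.48 to 0.68), and EIF3E followed at 0.55 (0.48 to 0.63). The median log2 ratio between control lines was −0.09 for the set.

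To compare levels between genes, CPM was divided by the median length of each gene's basic protein-coding transcripts in GENCODE. In CUTTL1 control cells the level per length ran from 6.09 CPM per kb for EIF4A1 to 513 CPM per kb for EIF4G2, with a median of 108. In TIB153 control cells it ran from 3.56 for EIF4A1 to 734 for EIF5A, with a median of 104. EIF4G2, EIF5A, EIF1 and EIF4B held the first 4 places in CUTTL1, at 513, 447, 326 and 306 CPM per kb, and in TIB153 EIF3E, at 320 CPM per kb, stood above EIF1, at 252. EIF4E, at 59.1 and 74.1 CPM per kb, lay below EIF4G1, at 150 and 141. The eIF2B genes were all in the lower part of the order, from 11.6 to 62.0 CPM per kb in CUTTL1. The order depends on the transcript length used, and the low places of EIF4A1 and EIF3C rest on the uncertain counts described above.

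**Figure D3:**
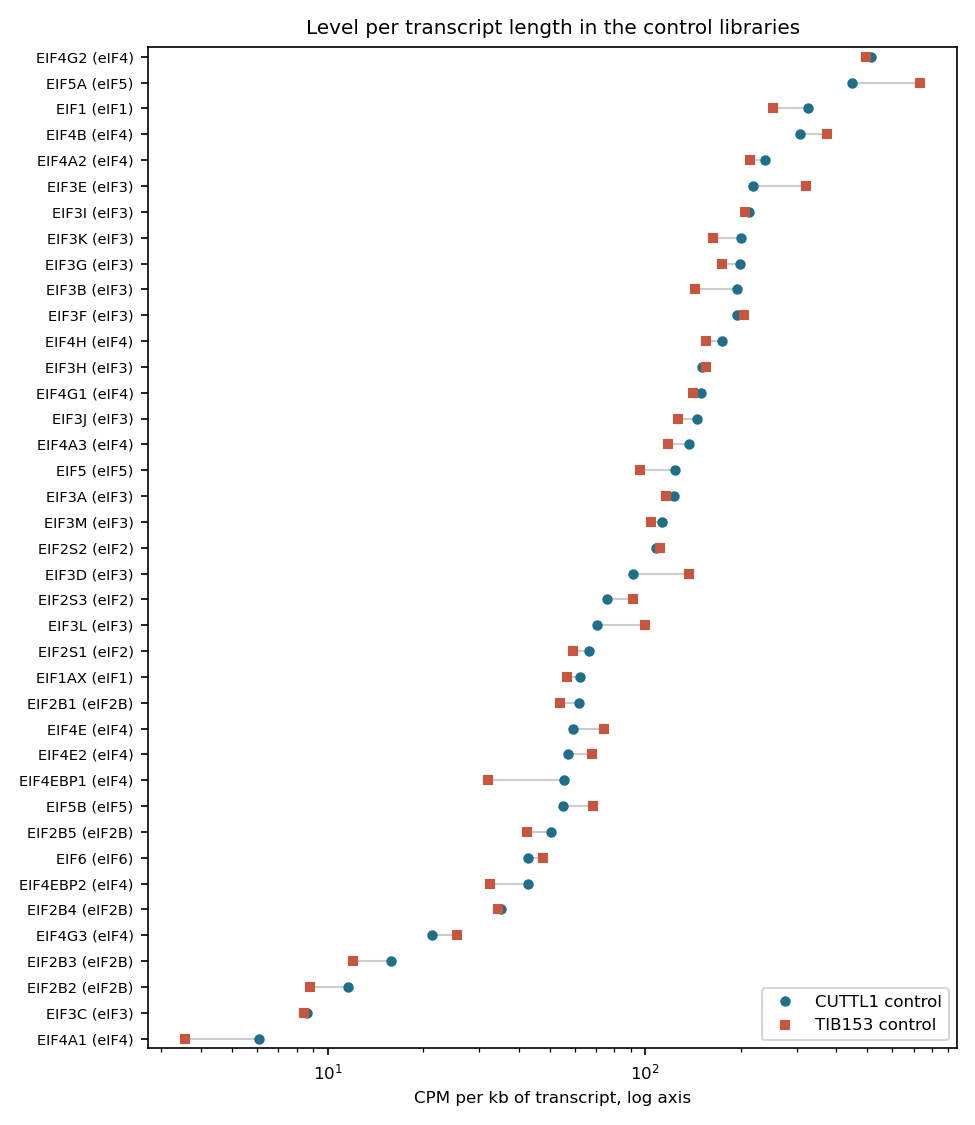
CPM per kb of transcript on a log axis for the 39 genes in control cells, ordered by CUTTL1, with circles for CUTTL1, squares for TIB153 and gray lines joining both. EIF4G2 and EIF5A lead in both lines, at 513 and 447 CPM per kb in CUTTL1, and EIF4A1 and EIF3C are lowest.

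Many genes of the translation machinery begin with a terminal oligopyrimidine (TOP) tract, a run of C and T that starts with C at the first base of the messenger RNA and links their translation to mTORC1. The starts of the genes were read from RefSeq promoter sequences (GRCh38.p14), in which 32 of the 39 genes had an entry. A start was counted as TOP-like where the annotated first base was C and at least 4 further bases of C or T followed it directly. This held for 7 of 32 genes (21.9%), against 7.61% of 9588 tested genes with an entry. In the sequences below, 15 bases come before the annotated start and 15 follow, and capitals mark the tract. None of these 7 genes was among those that passed the test, where 6.11% of all genes tested rose and 6.78% fell. So few genes cannot show a difference from those shares, and EIF3F was just over the threshold (adjusted p = 0.0506 by edgeR). The starts of genes that passed follow for comparison.

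EIF2S3, chrX:24054941-24054970, plus strand: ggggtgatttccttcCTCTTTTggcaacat
EIF3D, chr22:36529152-36529181, minus strand: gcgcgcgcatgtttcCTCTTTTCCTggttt
EIF3F, chr11:7987322-7987351, plus strand: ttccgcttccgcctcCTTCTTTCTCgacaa
EIF3K, chr19:38619173-38619202, plus strand: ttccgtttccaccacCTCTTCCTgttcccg
EIF3M, chr11:32583816-32583845, plus strand: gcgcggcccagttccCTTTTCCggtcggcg
EIF4A2, chr3:186783562-186783591, plus strand: gttgggcgccgctgtCTTTTCagtcgggcg
EIF4B, chr12:53006441-53006470, plus strand: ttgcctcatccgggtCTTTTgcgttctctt

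The log2 fold changes of these 7 genes ran from −0.32 for EIF2S3 to 0.39 for EIF3F, with a median of 0.05, and 2 of them had an unadjusted p under 0.05. DESeq2 passed none of them. Over the other 25 genes with an entry the median was −0.25. Of these 25, 1 rose (4%, against 6.11% of all genes tested) and 7 fell (28%, against 6.78%). This split was made after values were seen and was not tested. It leaves out the 7 genes with no entry, EIF2S2, EIF3A, EIF3E, EIF3G, EIF3H, EIF3L and EIF4EBP1. Of the genes that passed, EIF3L has no entry, and EIF4G1, EIF4G3 and EIF5A have several annotated starts, none of them TOP-like. The following 5 genes that passed have a single annotated start in that source, and in none does a tract begin there.

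EIF1, chr17:41688870-41688899, plus strand: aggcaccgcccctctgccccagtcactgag
EIF1AX, chrX:20141824-20141853, minus strand: gcaaagagtcgcggcgccatttgctgccgc
EIF3B, chr7:2354812-2354841, plus strand: ccccgtcgcacgcacatggctgggctgtag
EIF4E, chr4:98929119-98929148, minus strand: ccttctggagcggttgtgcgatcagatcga
EIF4EBP2, chr10:70404130-70404159, plus strand: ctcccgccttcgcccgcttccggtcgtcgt

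Of these 5, EIF1 rose and the others fell. Annotated starts were not measured in these cells. The letters CACGTG, the canonical E-box read the same on both strands, were searched in the window from 250 bases before to 50 bases after the start. They were present for 8 of 32 genes (25%), against 12.9% of the tested genes with an entry. These were EIF2B3, EIF3F, EIF3K, EIF4A3, EIF4B, EIF4E, EIF4G1 and EIF4H, with a median log2 fold change of −0.22, against −0.18 for the 24 genes without the letters.

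Other genes that act on initiation were described as lists. Of 8 tested genes for the eIF2 kinases, their partners and the eIF2 phosphatase, 2 rose (25%, against 6.11% of all genes tested) and 2 fell (25%, against 6.78%), and DESeq2 passed 2 of the 8. PPP1R15A, the inducible subunit that directs the phosphatase to eIF2, rose by 2.31 ± 0.20 (log2 scale, SE; adjusted p = 3.82e-04), from 334 to 2392 counts in CUTTL1 and from 259 to 1035 counts in TIB153. PPP1R15B, its constitutive counterpart, rose by 0.46 (adjusted p = 0.163 with DESeq2). The kinase genes EIF2AK1 and EIF2AK4 fell by 0.53 and 0.54 on the log2 scale (adjusted p = 0.141 with DESeq2 for EIF2AK4), and EIF2AK3, the kinase of the endoplasmic reticulum, was at 0.35 ± 0.17 (adjusted p = 0.185).

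Of 8 genes known as outputs of the response to eIF2 phosphorylation, 6 rose (75%, against 6.11% of all genes tested), with a median log2 fold change of 1.37. DESeq2 passed 5 of the 8. DDIT3, ATF3, TRIB3 and VLDLR rose by 2.13, 2.07, 1.49 and 1.24 on the log2 scale. ATF4, a main effector that is controlled largely at translation, was at 0.36 ± 0.13 (SE; adjusted p = 0.0889). Of 12 other initiation and recycling genes, EIF1B rose, and ABCE1, which splits ribosomes, and DENR fell by 0.45 and 0.43. These shares were 8.33% and 16.7%, against 6.11% and 6.78% of all genes tested, and DESeq2 passed none of the 12.

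Of 12 regulators of the cap and the poly(A) tail, CYFIP2 fell by 0.72 (8.33% of the list, against 6.78% of all genes tested). PABPC1, the main poly(A)-binding protein, was at −0.03 ± 0.13 (SE; adjusted p = 0.906), and PDCD4, an inhibitor of eIF4A, at 0.30 ± 0.15 (adjusted p = 0.208). None of 10 genes of the mTORC1 axis passed the edgeR test (2 at an unadjusted p under 0.05, or 20%, against 28.7% of all genes tested, and none by DESeq2), with a median of −0.13. None of 9 elongation and termination genes passed (4 at an unadjusted p under 0.05, or 44.4%, against the same 28.7%, and none by DESeq2). Their most abundant member, EEF1A1, was at 0.28 ± 0.14 (SE; adjusted p = 0.203), and their median was −0.18. Neither of the 2 mitochondrial initiation genes passed (none at an unadjusted p under 0.05, none by DESeq2).

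**Figure D4:**
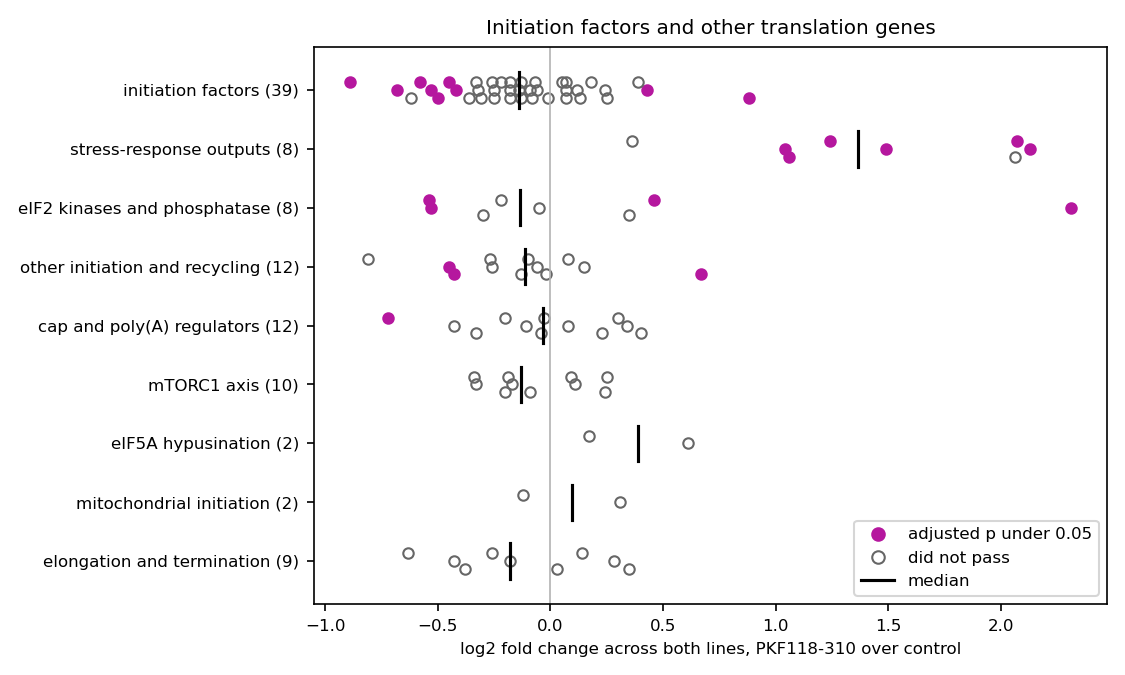
Log2 fold change across both lines for the 39 initiation factors and for 8 lists of other translation genes, one point per gene, filled where the edgeR adjusted p was under 0.05, with a bar at each median. The initiation factors lie between −0.89 and 0.88 around a median of −0.14, while the stress-response outputs lie around a median of 1.37.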

How the data were processed

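RNA from 4 groups of T-ALL cells was made into stranded, poly(A)-selected libraries, 1 per group, each sequenced in 2 lanes. The authors deposited whole-number counts per gene for each of the 8 lane files, not normalized. HISAT2, HTSeq, DESeq2 and hg38 are named in the submitters' processing notes, without versions or roles. How overlapping genes and strand were counted is not stated there or in the study's methods. Deposited tables of the authors' own comparisons (fold changes and p-values) were not used. Of 11796 genes with at least 80 reads, 99.5% had the coordinates of GENCODE v29, which supplied positions, lengths and shared bases.

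The lanes were summed. Lane agreement was checked by chi-square (0.99 to 1.017 per degree of freedom, genes of at least 10 reads). In each library 3 counts correspond to 0.369 to 0.394 CPM. Computations used R 4.3.3, edgeR 4.0.16, limma 3.58.1, DESeq2 1.42.0 and Python 3.11.15 with scipy 1.17.1, and the edgeR step was tested on simulated data. In those data both lines responded alike, so they do not cover lines that differ in their response. After filterByExpr, 13280 genes remained and were scaled by TMM. edgeR's robust quasi-likelihood test used cell line as a block, with 1 residual and a median of 13.0 prior degrees of freedom, so its SE rests mostly on a spread pooled over genes. Within a line, ratios used a pseudocount of 0.5 counts and exact binomial 95% intervals, and the interval of a line difference came from reciprocal counts. All 39 genes are named, with every library's value for genes that passed the test or reached 1.5-fold, fixed pairs of relatives and the extremes of level. Up to 4 genes that passed and some fixed ones are named from other lists. Alternatives changed the scaling, filter, test, block, lanes, pseudocount and fold limit. The genes, lists and tests were chosen with earlier results of these data known, and the eIF3 division and the promoter letters were added after values were seen. One marker gene is not reported here.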

Additional observations from a re-analysis of the deposited data

Results flagged for a closer look

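The genes EIF3E, EIF4A3, EIF4G2 and EIF5 moved in opposite directions in CUTTL1 and TIB153, each beyond counting error in both lines, and the difference was not tested because each group held 1 library. EIF4A3 had a log2 ratio of 0.11 (95% interval 0.02 to 0.21) in CUTTL1 and −0.65 (−0.77 to −0.54) in TIB153, a difference of −0.77 (TIB153 minus CUTTL1). EIF5 had 0.17 (0.10 to 0.23) and −0.31 (−0.38 to −0.23), a difference of −0.47. EIF4G2 had 0.05 (0.02 to 0.09) and −0.32 (−0.35 to −0.28), a difference of −0.37. EIF3E had −0.10 (−0.18 to −0.02) and 0.08 (0.02 to 0.15), a difference of 0.18. Counting intervals are narrow for genes with this many reads, and they leave out variation between cultures. For EIF3E the opposite directions depend on scaling. Scaling by total counts alone shifts all CUTTL1 log2 ratios by 0.05, which brings 0 into its interval there. With no regard to intervals, the ratios lay on opposite sides for 28.2% of the set, against 29.2% of all genes tested, so the set was near the background. The share of all genes with opposite directions beyond counting error in both lines is not given here. Whether these genes exceed that share was therefore not tested.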

How the results depend on the processing

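The main test passed 2 genes that rose and 7 that fell. With scaling by total counts alone 3 rose and 4 fell, over genes with a mean of at least 10 CPM 3 rose and 4 fell, and with DESeq2's Wald test 1 rose and 3 fell. With the line term dropped (no replicate block) 0 rose and 0 fell, and 0 of all 13280 genes passed, with 4 genes of the set at an unadjusted p under 0.05. With the first lane alone (without replicate 2), 3 rose (7.69%, against 5.88% of all genes tested) and 6 fell (15.4%, against 6.27%). With the second lane alone (without replicate 1), 1 rose (2.56%, against 4.9%) and 5 fell (12.8%, against 5.05%). No fold change that passed the test turned its direction under any of these alternatives. Over all genes, 47.4% of calls were rises in the main test and 60.3% with scaling by total counts alone, a scaling that shifts all log2 ratios by 0.05 in CUTTL1 and 0.06 in TIB153. All genes that passed numbered 812 rises and 900 falls, against 194 and 249 with DESeq2's Wald test, and 849 and 560 with scaling by total counts alone. The cause of these changes was not tested. Within lines, a 2-fold limit left 0 higher and 0 lower in CUTTL1 and 1 higher and 0 lower in TIB153. With either lane alone, 1 gene was higher in TIB153 in place of 2, and without genes that share exonic bases or have a near-identical copy, 1 was higher. Shares of all genes under these alternatives within lines are not given here, so these counts are not compared with the background. Leaving out a whole line leaves no residual degrees of freedom, so the values within each line stand in for it. Few counts limit EIF4A1, EIF2B3 and EIF3C.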
